A study of Mus musculus and Rattus norvegicus with 43 samples.

Results

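The libraries described here are the 14 mouse striatum libraries with the most and the least reads of Fos, 7 at each end, out of 20 that were ranked, 22 mouse libraries and 43 libraries of mouse and rat in the whole series. The study used C57BL/6 mice that were injected at P0 with a control miRNA, a C/N-TAF miRNA or an N-TAF miRNA, the last pair directed at isoforms of Taf1, a gene for the scaffold subunit of the TFIID complex that helps RNA polymerase II start transcription. The striatum of one hemisphere was frozen at 4 months of age, total RNA was extracted with Trizol and the libraries were sequenced on an Illumina NovaSeq instrument. The miRNA vector and its promoter, the sex of the animals and any handling before the tissue was taken are not stated in the labels, and no group was labelled as stimulated. Each column of the table is labelled as a separate sample. Whole tissue was measured, so a lower level may reflect fewer cells of a type or less RNA per cell, and these cannot be told apart.

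The libraries were chosen by their measured Fos counts and by no other value. Fos counts were divided by the column total, and the 20 libraries were ranked without the library that has no injection label and without C/N-TAF library 2, which was set aside for its dependence on transcript length. Its log2 deviation from the mean library had a Spearman rho of -0.362 with exon length over genes, against -0.261 to 0.279 in the ranked libraries. The 7 highest are called Fos-high and the 7 lowest Fos-low. The Fos-high libraries were control libraries 1, 2, 4 and 7, C/N-TAF libraries 4 and 5 and N-TAF library 6. The Fos-low libraries were control libraries 3, 5 and 8 and N-TAF libraries 1, 3, 4 and 5. No Fos-low library was from C/N-TAF mice, so these 2 Fos-high libraries add nothing to a difference adjusted for injection, and a high Fos level cannot be told apart from the C/N-TAF injection in them. Because a measured value made the classes, their differences are given as a description of these libraries, with no p-value for any gene.

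Immediate-early genes are transcribed within minutes of synaptic or growth factor stimulation, without new protein synthesis. In neurons calcium and cAMP signals reach them through kinases that phosphorylate CREB, bound at cAMP response elements, and the ternary complex of serum response factor, bound at CArG boxes. Many encode transcription factors (the Fos, Jun, Egr and Nr4a families), others act at synapses (Arc) or shut the signal down (the Dusp phosphatases), and a delayed wave of secreted and synaptic genes such as Bdnf follows. In the striatum spiny projection neurons, the principal cells, induce them after dopamine receptor stimulation.

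Fos as CPM, its count over the column total in M (mega) counts, was 21.9, 23.2, 23.8, 29.4, 30.2, 32.2 and 32.9 in the Fos-high libraries and 5.31, 5.33, 5.63, 6.94, 7.21, 8.40 and 9.70 in the Fos-low libraries. The weakest Fos-high library, C/N-TAF library 5 at 21.9, lay just above C/N-TAF library 3, which missed the class at 21.4. The strongest Fos-low library, control library 8 at 9.70, lay just below N-TAF library 8 at 10.5. The 20 libraries therefore form a graded series rather than separate clusters at the class borders. Raw Fos counts behind these values were 613 to 1075 in the Fos-high and 143 to 315 in the Fos-low libraries.

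**Figure D1:**
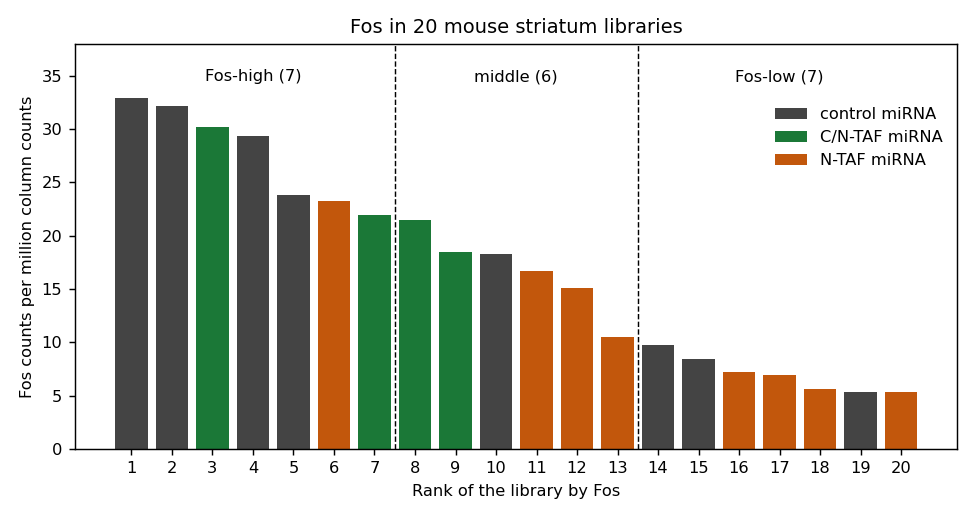
Fos as CPM of the column total (vertical axis) in 20 mouse striatum libraries ordered by rank (horizontal axis), with bars coloured by injection. The dashed lines mark the borders of the 7 Fos-high libraries (21.9 to 32.9) and the 7 Fos-low libraries (5.31 to 9.70), and the 6 bars between them enter neither class.

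Library totals ran from 24.9 to 35.6 M counts over the 20 ranked libraries. Totals of Fos-high (25.1 to 35.6 M) and Fos-low libraries (25.4 to 33.0 M) overlapped. Levels below are CPM scaled with TMM factors. Taf1, the target of the miRNAs, was at 95.6 to 105 CPM in Fos-high and 84.0 to 104 in Fos-low libraries. Dbp, a clock output gene that tracks the time of day, was at 147 to 186 and 104 to 194 CPM. The sample titles begin with 5 pairs of letters whose meaning is not given. The letters RT begin 3 Fos-low and 0 Fos-high titles.

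Sequences just upstream of 6 genes are shown because these genes stood higher together with Fos and were picked for promoters that hold the words the CREB pathway is known to read. Not every gene of the set does: the promoters of Tiparp, Shisa2 and Spty2d1, which pass the line defined below, and of Dusp6 held none of the 5 words searched. They are the 250 bases before the annotated start, from RefSeq (GRCm38.p6), 5′ to 3′ in the direction of transcription. Fos lies at chr12:85473640-85473889 on the plus strand, Fosb at chr7:19310046-19310295 on the minus strand, Junb at chr8:84978749-84978998 on the minus strand, Nr4a1 at chr15:101266596-101266845 on the plus strand, Btg2 at chr1:134079156-134079405 on the minus strand and Dusp1 at chr17:26508473-26508722 on the minus strand. Capitals mark the cAMP response element TGACGTCA and its half-site TGACG, or CGTCA on the other strand.
Fos: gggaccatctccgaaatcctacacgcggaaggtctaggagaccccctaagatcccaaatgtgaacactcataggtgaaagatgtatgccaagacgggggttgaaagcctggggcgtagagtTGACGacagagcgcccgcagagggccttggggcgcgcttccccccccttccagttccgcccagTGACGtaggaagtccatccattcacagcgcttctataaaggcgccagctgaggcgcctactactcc
Fosb: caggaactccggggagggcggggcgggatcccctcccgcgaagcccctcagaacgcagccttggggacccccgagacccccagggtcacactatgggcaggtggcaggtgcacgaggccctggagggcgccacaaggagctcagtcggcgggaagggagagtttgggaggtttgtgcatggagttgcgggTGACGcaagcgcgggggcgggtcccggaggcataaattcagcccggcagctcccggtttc
Junb: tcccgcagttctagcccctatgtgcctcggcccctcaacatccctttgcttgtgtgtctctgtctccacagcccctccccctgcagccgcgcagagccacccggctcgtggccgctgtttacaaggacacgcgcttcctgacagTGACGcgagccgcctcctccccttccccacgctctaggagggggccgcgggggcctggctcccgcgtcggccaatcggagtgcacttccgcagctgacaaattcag
Nr4a1: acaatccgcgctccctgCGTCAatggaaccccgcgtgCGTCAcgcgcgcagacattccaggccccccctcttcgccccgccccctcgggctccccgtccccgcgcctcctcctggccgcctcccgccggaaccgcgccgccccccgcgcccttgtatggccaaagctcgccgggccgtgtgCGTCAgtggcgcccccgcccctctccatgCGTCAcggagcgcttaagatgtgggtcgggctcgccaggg
Btg2: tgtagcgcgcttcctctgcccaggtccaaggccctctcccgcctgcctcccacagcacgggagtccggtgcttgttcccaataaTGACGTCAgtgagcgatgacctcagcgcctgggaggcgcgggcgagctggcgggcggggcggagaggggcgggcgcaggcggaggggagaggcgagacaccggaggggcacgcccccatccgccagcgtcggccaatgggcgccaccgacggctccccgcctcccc
Dusp1: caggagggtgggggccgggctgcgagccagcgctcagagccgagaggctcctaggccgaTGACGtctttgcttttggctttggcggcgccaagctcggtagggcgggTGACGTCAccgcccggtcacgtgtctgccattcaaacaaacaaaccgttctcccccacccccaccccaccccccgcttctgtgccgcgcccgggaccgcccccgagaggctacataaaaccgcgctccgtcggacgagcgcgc
The full element stood 166 bases before the start in Btg2 and 143 bases before it in Dusp1. Fos had half-sites at 129 and 66 bases before the start, Junb had one at 106 and Fosb one at 60. Nr4a1 had 4 half-sites, at 233, 213, 69 and 40 bases.

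A difference below is the log2 ratio of Fos-high to Fos-low libraries in 1 edgeR quasi-likelihood fit with the injection as covariate, so it is a weighted mean of the difference within control and within N-TAF libraries. A gene is said to pass the line when its adjusted p in that fit was under 0.05. Besides Fos itself (difference 1.91, SE 0.155), 20297 genes were fitted, with a median difference of 0.0021. Of these 8 passed the line with higher levels in Fos-high libraries, which is 0.0394% of the genes. They were Egr2, 1700016P03Rik, Btg2, Dusp1, Tiparp, Shisa2, Fosb and Spty2d1. The number that passed with lower levels was 0 (0%) by edgeR, where 331 genes were lower at an unadjusted p under 0.05, and 1 by DESeq2. At that unadjusted threshold 743 genes stood in both directions together, against 1015 for 5% of the genes fitted. The rule used Fos from these same libraries, so nothing is read from these counts. The count of 8 was 5 without N-TAF library 6, without control library 3 and without control library 5. Without the 3 Fos-low libraries with RT titles, a choice made after seeing the data, 10 genes passed, 6 of them among the 8.

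In 36 genes every Fos-high library was above every Fos-low library, which is 0.177% of the genes, and in 11 genes (0.0542%) every Fos-high library was below. Of the 36, 17 belong to the lists of immediate-early genes described below. The counts of genes without overlap can only grow when a library is left out. The 36 became 55 without control library 1, 56 without control library 7, 58 without control library 3 and 68 without N-TAF library 6. The 11 became 17 without control library 4, control library 5 or N-TAF library 1, 18 without N-TAF library 4, 20 without control library 1, 21 without control library 7, 22 without control library 8, 23 without N-TAF library 6 and 34 without control library 3.

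**Figure D2:**
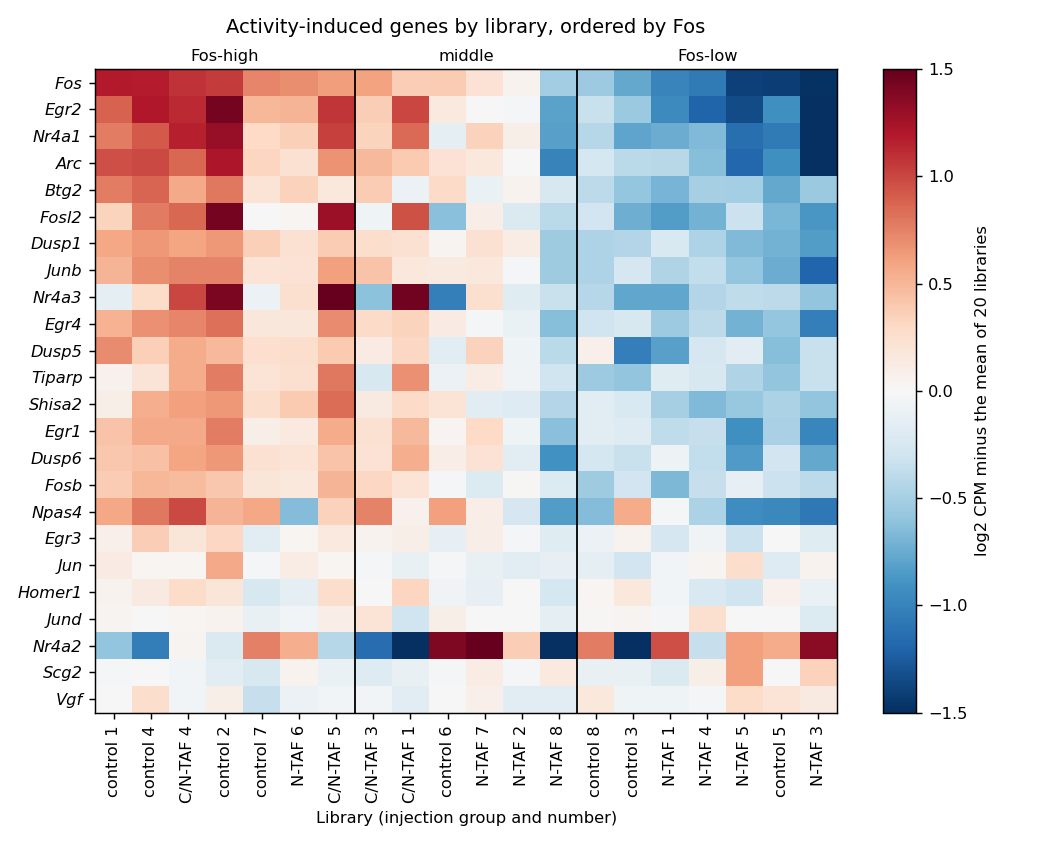
Log2 CPM of 24 activity-induced genes (rows) in 20 libraries (columns, ordered by Fos from left to right), each minus the mean of the gene over the 20 libraries, with colours limited to the range of the bar. Most rows from Egr2 to Fosb fall broadly with the order of Fos. Fosl2, Nr4a3 and Tiparp do so less closely (r with Fos of 0.77, 0.56 and 0.75). Egr3, Jun, Homer1, Jund, Scg2 and Vgf stay near white and Nr4a2 is scattered.

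The transcription factors of the immediate-early class were taken as a list of 23 genes, all measured. Of these 19 had a difference above 0, where 50.8% of all genes did, the median was 0.33, and 8 did not overlap between the classes. Egr2 and Fosb passed the line and the others did not. Of all genes fitted, 0.177% were higher without overlap and 0.0394% passed the line with higher levels. The list's summed level was 964 to 1479 CPM in Fos-high and 587 to 800 CPM in Fos-low libraries.

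Egr2 (ENSMUSG00000037868), a zinc finger factor of the Egr family, had the largest difference of the genes that passed the line. Its level was lowest 17.6, median 26.3 and highest 33.6 CPM in Fos-high libraries and lowest 2.88, median 6.45 and highest 9.90 CPM in Fos-low libraries. The classes did not overlap, with control library 2 the highest of all and N-TAF library 3 the lowest, and the log2 difference was 1.70 (SE 0.210), which is 3.25-fold. Egr4 was at 49.3, 70.6 and 78.1 CPM (lowest, median and highest) against 21.5, 30.1 and 37.2 CPM, a difference of 0.90 (SE 0.135). Egr1, the family member most used as a marker of neuronal activity, was at 255, 353 and 409 CPM against 121, 183 and 212 CPM, a difference of 0.77 (SE 0.154). Neither overlapped between the classes. Egr3 differed from these relatives. It stood at 161, 201 and 236 CPM in Fos-high and 145, 172 and 189 CPM in Fos-low libraries, overlapped, and had a difference of 0.19 (SE 0.0825).

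Among the partners and relatives of Fos in the AP-1 dimer, Fosb (ENSMUSG00000003545), whose protein accumulates in the striatum with repeated stimulation, was at 19.9, 23.6 and 25.4 CPM against 11.1, 13.99 and 16.3 CPM. Its difference was 0.68 (SE 0.0901), without overlap. Junb, which dimerises with Fos and replaces Jun in many induced complexes, was at 111, 148 and 162 CPM against 42.2, 69.7 and 80.7 CPM. Its difference was 0.97 (SE 0.163), again without overlap. Fosl2 was at 26.9, 46.3 and 72.7 CPM against 14.6, 16.5 and 22.1 CPM, a difference of 1.12 (SE 0.276). The remaining members of the dimer family overlapped between the classes, with differences of 0.28 (SE 0.108) for Jun, 0.14 (SE 0.0885) for Fosl1 and -0.03 (SE 0.0621) for Jund. Jund is known for steady expression in unstimulated cells.

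The Nr4a family of orphan nuclear receptors was split. Nr4a1 was at 105, 161 and 210 CPM in Fos-high and 26.3, 49.0 and 63.2 CPM in Fos-low libraries, with no overlap and a difference of 1.53 (SE 0.232). Nr4a3 was at 14.5, 19.3 and 47.4 CPM against 9.27, 11.8 and 12.3 CPM, also without overlap, and its difference was 0.96 (SE 0.297), or 0.63 without control library 2. Nr4a2, which is also a marker of some cortical and claustral neurons, was at 2.74, 4.86 and 9.55 CPM against 1.36, 8.68 and 14.4 CPM. Its classes overlapped fully and its difference was -0.28 (SE 0.509), which leaving out 1 library moved to between -0.57 (without control library 3) and -0.03 (without control library 8). With Slc17a7 as covariate it was 0.12.

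Npas4, a factor induced by calcium entry in neurons, did not separate. It was at 16.8, 39.2 and 52.3 CPM in Fos-high and 12.5, 16.7 and 38.7 CPM in Fos-low libraries, a difference of 0.57 (SE 0.337). Leaving out 1 library moved it to between 0.33 (without control library 5) and 0.91 (without control library 3). The overlap came from N-TAF library 6, Fos-high with the lowest value of its class, and control library 3, Fos-low with the highest. Ier2, at 2.81 to 3.47 against 1.59 to 3.17 CPM, and Atf3, at 0.625 to 1.39 against 0.249 to 1.31 CPM, overlapped too, with differences of 0.41 (SE 0.176) and 0.81 (SE 0.317). They rest on few reads, 51 to 104 counts a library for Ier2 and 8 to 49 for Atf3. Of the rest of the list Klf10, Klf4, Nfil3, Csrnp1 and Crem had differences between 0.15 and 0.33 and Myc and Maff of -0.03 and -0.47, all with overlap.

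**Figure D3:**
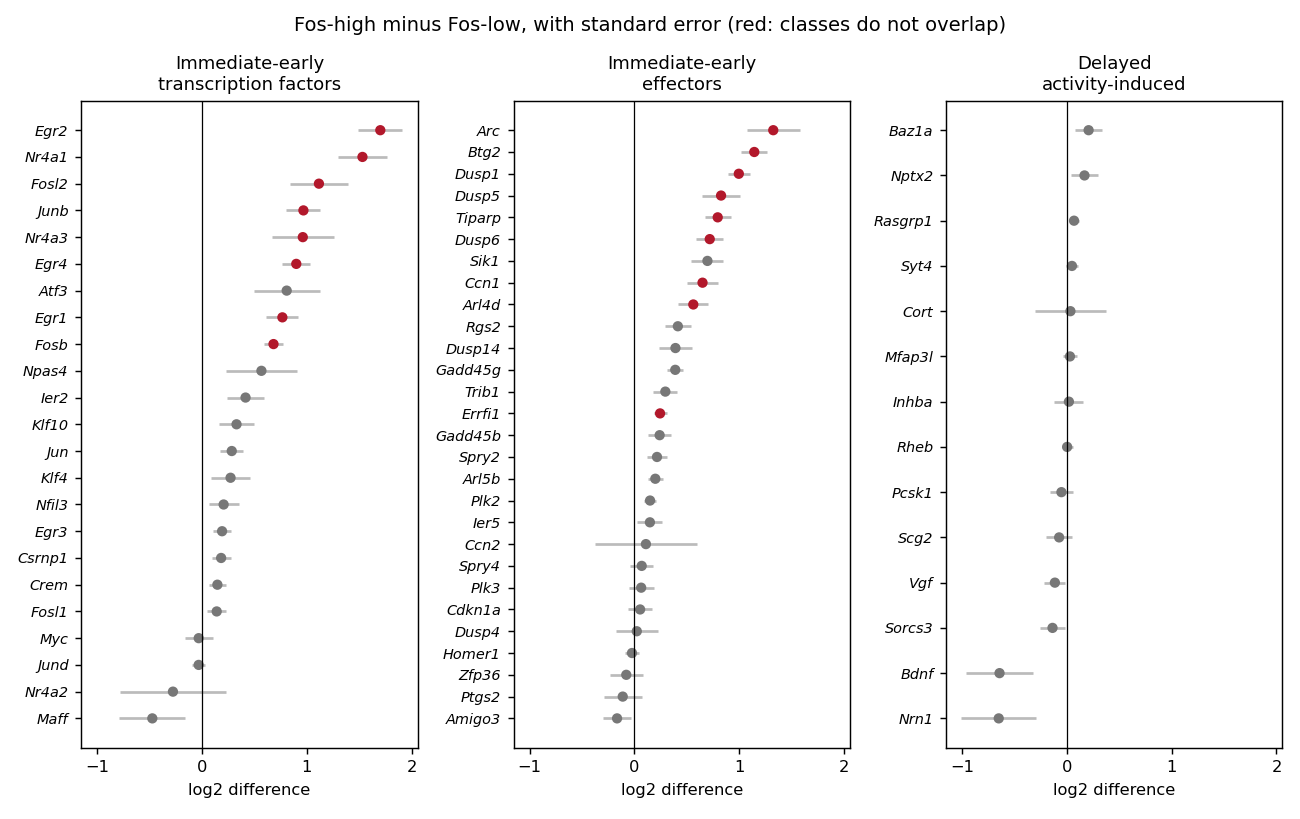
Log2 difference, Fos-high minus Fos-low (horizontal axis), of each member (vertical axis) of the immediate-early transcription factor list (23 genes), the immediate-early effector list (28) and the delayed activity-induced list (14), with bars of 1 standard error. Red points mark genes whose classes do not overlap, 8, 9 and 0 of the lists in that order.

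Immediate-early genes that encode no transcription factor were taken as a second list of 28 effectors, all measured. Of these 24 had a difference above 0, where 50.8% of all genes did, and the median was 0.24. Of the list 9 did not overlap, where 0.177% of all genes were higher without overlap. The line was passed by 3 (Btg2, Dusp1 and Tiparp), where 0.0394% of all genes passed it with higher levels. The list's summed level was 1412 to 1788 CPM in Fos-high and 1020 to 1298 CPM in Fos-low libraries.

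Arc, which binds endosomal machinery at the synapse and removes AMPA receptors, was at 172, 265 and 340 CPM in Fos-high and 45.0, 94.0 and 122 CPM in Fos-low libraries. The classes did not overlap, and the difference of 1.32 (SE 0.255) was the largest of the list, although it did not pass the line. Homer1 stood apart from Arc at 208, 270 and 296 CPM against 199, 240 and 275 CPM, a difference of -0.02 (SE 0.0683). Its highest levels within the classes, 296 CPM, were in C/N-TAF libraries 4 and 5, which add nothing to the adjusted difference. C/N-TAF library 1, of middle rank, had 307 CPM. Over alternatives other than leaving out a library the Homer1 difference lay between -0.04 and 0.20. Only the short form of Homer1 is known as an immediate-early transcript, and counts per gene add it to the long forms.

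Of the phosphatases that switch off MAP kinases, 3 separated the classes. Dusp1 (ENSMUSG00000024190), a nuclear phosphatase of several MAP kinases, was at 35.0, 44.7 and 46.9 CPM against 16.7, 21.5 and 25.4 CPM, a difference of 0.996 (SE 0.108). Dusp5, another nuclear phosphatase, was at 11.6, 12.8 and 15.9 CPM against 4.79, 7.74 and 10.3 CPM, a difference of 0.83 (SE 0.178). Dusp6, a cytoplasmic one, was at 45.4, 52.9 and 62.0 CPM against 21.9, 31.3 and 37.2 CPM, a difference of 0.72 (SE 0.128). None of the 3 overlapped. The differences of Dusp14 and Dusp4, whose classes overlapped, were 0.39 (SE 0.160) and 0.02 (SE 0.201).

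Btg2 (ENSMUSG00000020423), an antiproliferative protein that recruits mRNA deadenylases, was at 13.3, 17.7 and 21.8 CPM in Fos-high and 6.99, 8.08 and 9.06 CPM in Fos-low libraries. The Fos-low range was narrow, the classes did not overlap, and the difference was 1.14 (SE 0.123). Tiparp (ENSMUSG00000034640), a mono-ADP-ribosyltransferase, was at 23.7, 26.7 and 39.3 CPM against 15.1, 16.6 and 20.02 CPM, a difference of 0.79 (SE 0.122). Ccn1, a secreted matrix protein, Arl4d, a small GTPase, and Errfi1, a feedback inhibitor of the EGF receptor, did not overlap either and had differences of 0.65, 0.56 and 0.24. Sik1, a kinase that restrains CREB coactivators, had a difference of 0.70 (SE 0.153) with a slight overlap, 21.6 CPM in the lowest Fos-high against 22.7 CPM in the highest Fos-low library. Rgs2, which limits Gq signalling, was at 123 to 178 against 79.7 to 126 CPM, a difference of 0.41 (SE 0.126). Members at or below 0 were Homer1, Zfp36, Ptgs2 and Amigo3, between -0.17 and -0.02.

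None of the delayed activity-induced genes separated the classes, where 0.177% of all genes were higher and 0.0542% lower without overlap. Of the 14 genes of this list 8 had a difference above 0, where 50.8% of all genes did, and the median was 0.011. The line was passed by 0, where 0.0394% of all genes passed it with higher levels. Counts of 0 are near these shares, so nothing is read from them about the list. Scg2, a secretory granule protein, was at 258, 297 and 317 CPM in Fos-high and 262, 303 and 465 CPM in Fos-low libraries, a difference of -0.07 (SE 0.123). Vgf, a neuropeptide precursor, was at 189 to 289 against 230 to 292 CPM, a difference of -0.11 (SE 0.0997). Bdnf, the neurotrophin, was at 0.428 to 1.58 against 0.775 to 2.29 CPM, from 14 to 75 counts a library, with a difference of -0.64 (SE 0.324). Leaving out a library moved the Bdnf difference to between -0.90 and -0.44, and the other alternatives to between -1.31 and -0.03. Nrn1, a membrane-anchored protein that promotes neurite growth, was at -0.65 (SE 0.357) in all 14 libraries and at -1.27 without N-TAF library 6. With other libraries left out Nrn1 reached -0.45, and over the other alternatives it lay between -1.49 and -0.19. N-TAF library 7, of middle rank, had the highest Bdnf (6.02 CPM) and Nrn1 (11.9 CPM) of the ranked libraries. It also had the most Slc17a7 (234 CPM), a marker of cortical and hippocampal excitatory neurons. The median of Slc17a7 was 46.6 CPM in Fos-high and 77.1 CPM in Fos-low libraries, with overlap. Whether neighbouring tissue had a part in the Bdnf and Nrn1 differences was not tested. The highest differences of the list were those of Baz1a (0.21) and Nptx2 (0.17), both with overlap.

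Outside the lists Shisa2 (ENSMUSG00000044461), of a family of membrane proteins first described in Xenopus as regulators of Wnt and FGF receptors, was at 11.5, 15.8 and 19.3 CPM against 6.84, 7.72 and 9.65 CPM. Its difference was 0.78 (SE 0.104), without overlap. Spty2d1 (ENSMUSG00000049516), a histone chaperone related to yeast Spt2, had a smaller and tighter difference of 0.36 (SE 0.0645), at 26.3, 27.3 and 30.7 CPM against 19.7, 20.8 and 24.5 CPM. In several further genes, named here after their values were seen, the classes did not overlap but the line was not passed. Apold1, known as an early response gene of endothelial cells, had a difference of 1.10 (SE 0.223), Gpr3, a constitutively active receptor that raises cAMP, of 0.58 (SE 0.163), Midn, which sends immediate-early proteins to the proteasome, of 0.37 (SE 0.0739), and Slc25a25, a mitochondrial ATP carrier, of 0.31 (SE 0.0624). The genes without overlap in the other direction were mostly near the detection limit. The highest expressed of them, Fam3c, was at 48.1 to 51.4 against 51.4 to 58.0 CPM, a difference of -0.14 (SE 0.0463).

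A transcript that carries a pair of miRNAs was also among the genes that passed the line. 1700016P03Rik (ENSMUSG00000085609) is annotated in GENCODE as an RNA that hosts the hairpins Mir212 and Mir132. The mature miRNAs are shown because they share their seed, bases 2 to 8, in capitals (RefSeq, GRCm38.p6, both at chromosome 11).
mmu-miR-212-3p: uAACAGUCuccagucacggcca
mmu-miR-132-3p: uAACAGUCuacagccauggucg
The common seed is AACAGUC, so both are known to address the same class of sites, and miR-132 is known as a CREB-induced miRNA of neurons. The host was at 6.28, 10.7 and 15.03 CPM in Fos-high and 2.66, 3.73 and 4.23 CPM in Fos-low libraries, without overlap, and its difference was 1.27 (SE 0.160). It and its hairpins are named after their values were seen. The Mir212 row was at 1.41, 1.77 and 2.42 CPM against 0.595, 0.641 and 1.16 CPM, a difference of 1.09 (SE 0.214), from 37 to 69 against 18 to 38 counts. The Mir132 row overlapped, with 11 to 33 against 4 to 22 counts and a difference of 0.70 (SE 0.407). Reads of the hairpin rows and of the host cannot be told apart by these counts, and mature miRNAs were not measured.

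The genes most like Fos were found by Pearson's correlation of log2 CPM over the 20 libraries, among genes with a mean of at least 5 CPM. These values describe libraries that the ranking itself used, from a single sequencing series of striatum, and carry no test. They were Dusp1 at 0.97, Btg2, Junb, Egr2 and Arc at 0.95, Nr4a1 and Egr4 at 0.94, 1700016P03Rik at 0.92, Egr1 at 0.91 and Shisa2 at 0.89. These genes were at least as close to one another as to Fos in several pairs, with r of 0.98 for Junb with Egr4, for Nr4a1 with Egr2 and for Arc with Egr4. A slope on log2 Fos over all 20 libraries put 16 genes past the same line, of which 6 were among the 8 above. Egr2 was higher by 0.89 (SE 0.0758), Nr4a1 by 0.83 (SE 0.0834), Arc by 0.74 (SE 0.0728), Btg2 by 0.56 (SE 0.0479) and Dusp1 by 0.52 (SE 0.0363) on the log2 scale for each doubling of Fos. Tiparp and Spty2d1 were not among the 16, and Rgs2 (0.25, SE 0.0396) and the potassium channel gene Kcnj2 (0.20, SE 0.0345) were.

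Fosl2, Nr4a3 and Tiparp shared a pattern, described after their values were seen. Their highest levels fell in the same 3 libraries, C/N-TAF library 5, C/N-TAF library 1 and control library 2, with 47.4, 43.6 and 42.3 CPM of Nr4a3, 65.6, 52.1 and 72.7 CPM of Fosl2 and 39.3, 36.4 and 38.6 CPM of Tiparp. The next highest library was C/N-TAF library 4 for each, at 31.9, 48.7 and 33.3 CPM. Fos was at 22.2, 18.6 and 29.6 CPM in the 3 libraries, so one of them lies in the middle of the ranking. Over 20 libraries r was 0.93 between Fosl2 and Nr4a3, and Tiparp had r of 0.89 with Fosl2 and 0.90 with Nr4a3. With Fos r was 0.77 for Fosl2, 0.56 for Nr4a3 and 0.75 for Tiparp.

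The injection groups were looked at separately, since Fos-high held 4 control and Fos-low 3 control libraries. A gene without overlap over all libraries of the classes has none within controls by construction, so the values are given as a description. Arc was at 183 to 340 CPM in 4 Fos-high and 77.2 to 122 CPM in 3 Fos-low control libraries, and Dusp1 at 38.3 to 46.9 and 18.3 to 21.9 CPM. The differences within controls were 1.63 for Egr2, 1.61 for Nr4a1, 1.41 for Arc, 1.25 for Btg2 and 1.10 for Dusp1. Among N-TAF mice the only Fos-high library, library 6, had 23.3 CPM of Fos, 17.8 of Egr2, 172 of Arc and 35.0 of Dusp1. The 2 libraries outside the ranking can be set beside these. The library without an injection label had 20.5 CPM of Fos, 14.5 of Egr2, 171 of Arc and 28.2 of Dusp1, and C/N-TAF library 2 had 8.47, 7.51, 126 and 25.3 CPM.

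The 6 libraries of ranks 8 to 13 entered neither class, so the contrast did not use their values, although the ranking used their Fos. The genes tested in them were chosen with earlier results of these data known. The test therefore describes these 6 libraries and is no independent check of the contrast. For 10 genes the correlation of log2 CPM with log2 CPM of Fos was tested over these 6 libraries with an exact two-sided permutation test, adjusted by Benjamini-Hochberg over the 10 relations, where the smallest possible p is 0.00278. Pearson's r was above 0 for 10 of 10 genes. It passed for Junb (r = 0.982, p = 0.0167, adjusted p = 0.0417, exact permutation), Arc (r = 0.977, p = 0.00556, adjusted p = 0.0417, exact permutation), Egr4 (r = 0.967, p = 0.0139, adjusted p = 0.0417, exact permutation) and Npas4 (r = 0.944, p = 0.00833, adjusted p = 0.0417, exact permutation). Dusp1 (0.901), Egr1 (0.862), Egr2 (0.819), Nr4a1 (0.770), Fosb (0.734) and Ier2 (0.109) did not pass. By Spearman's rho 0 of 10 passed. Arc and Npas4 had the highest rho, 0.943 (p = 0.0167, adjusted p = 0.0833, exact permutation), while Egr2 and Egr4 had 0.829, Junb 0.771, Fosb and Dusp1 0.600, Egr1 0.543, Nr4a1 0.371 and Ier2 0.0857.

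**Figure D4:**
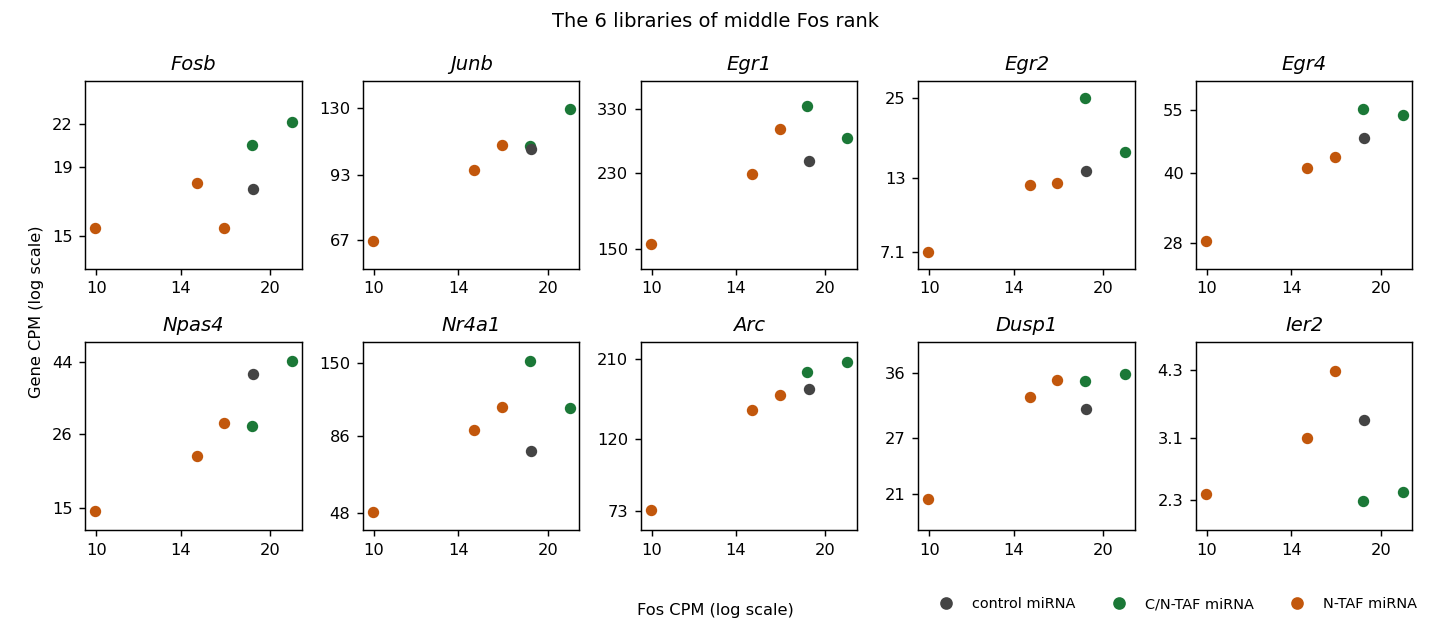
CPM of 10 genes (vertical axes) against CPM of Fos (horizontal axes), all on log scales, in the 6 libraries of middle rank, with points coloured by injection. N-TAF library 8, at 9.96 CPM of Fos, is the lowest point for 8 of the 10 genes and lies away from the other 5 libraries.

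The libraries farthest from the median of Fos were N-TAF library 8 at 9.96 CPM and C/N-TAF library 3 at 21.8 CPM. In the 4 libraries that remained without them r was 0.881 for Arc, 0.855 for Egr4, 0.802 for Junb and 0.789 for Npas4. It was 0.619 for Egr2, 0.544 for Egr1, 0.356 for Fosb, 0.250 for Nr4a1, -0.0363 for Dusp1 and -0.316 for Ier2. Each r was lower than over all 6 libraries, with the largest falls for Dusp1 and Nr4a1. With 4 libraries, dependence on the libraries left out cannot be told apart from noise. Within an injection group there were 3 N-TAF, 2 C/N-TAF and 1 control libraries, too few for a value. The 2 C/N-TAF libraries and the control library had the 3 highest levels of Fos and the 3 N-TAF libraries the lowest, so the order of Fos cannot be told apart from the injection in these 6.

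Upstream sequence was searched on both strands over the 250 bases before the start for 5 words, the cAMP response element TGACGTCA, its half-site TGACG, which the full element contains, the AP-1 word TGANTCA, the Egr word GCGNGGGCG and the CArG box. Of the 51 immediate-early genes of both lists 38 had a promoter in the table, 50 promoters in all. The half-site was in 60% of these, against 23.8% of 17002 promoters of fitted genes and 17.8% of all 32851. The full element was in 14%, against 2.28% and 1.55%, the CArG box in 12%, against 1.18% and 1.47%, and the Egr word in 24%, against 7.95% and 4.70%. The AP-1 word was in 2%, against 4.76% and 6.75%. The shares count alternative starts of 1 gene separately, which weighs most on the CArG box: 4 of its 6 promoters here were starts of Egr2 and the others belonged to Dusp5 and Zfp36, 3 of 38 genes. Immediate-early genes whose classes did not overlap had 20 promoters, with the half-site in 70%, the full element in 20%, the CArG box in 25%, the Egr word in 20% and the AP-1 word in 0. The 30 promoters of those that overlapped had them in 53.3%, 10%, 3.33%, 26.7% and 3.33%. Counted by gene, the half-site was in 12 of 15 genes without overlap and 12 of 23 with overlap, the full element in 4 and 3, the CArG box in 2 and 1 and the Egr word in 4 and 8. Of the 17 promoters of delayed genes 29.4% held a half-site, 11.8% the full element, 5.88% the AP-1 word and 0 the Egr word or a CArG box. A match describes the letters in this window and shows no binding.

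The regulators of these genes were lists of their own. Of 18 genes of the MAP kinase pathway and its serum response factors 11 had a difference above 0, where 50.8% of all genes did. Their median was 0.017. Srf, which binds the CArG box, did not overlap, at 65.8, 70.6 and 79.4 CPM against 50.2, 59.4 and 63.6 CPM, a difference of 0.22 (SE 0.0594), without passing the line. The 17 others overlapped. Of 15 genes of cAMP and dopamine signalling 12 were above 0, with a median of 0.033 and 0 without overlap. The share of all genes without overlap was 0.177% higher and 0.0542% lower, so this 0 is near it. Drd1, the dopamine receptor that stimulates cAMP, had a difference of 0.10 (SE 0.0682), Drd2, the inhibitory receptor, of 0.03 (SE 0.0696) and Creb1 of 0.0042 (SE 0.0461).

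Markers of the cells of the striatum overlapped between the classes, where 0.177% of all genes were higher and 0.0542% lower without overlap. In lists this short a count of 0 is near these shares, so it is not read as a result about the cell types. Of 18 identity genes of spiny projection neurons 17 had a difference above 0, where 50.8% of all genes did. Their median was 0.044 and their highest value 0.14. Ppp1r1b, the DARPP-32 gene that defines these neurons, was at 1911, 2078 and 2207 CPM in Fos-high and 1479, 1956 and 2118 CPM in Fos-low libraries. The medians of direct-pathway, indirect-pathway, cholinergic and other interneuron genes were 0.070, 0.033, 0.059 and 0.052, and 0 of their members separated the classes. Among neuropeptide precursors, which follow dopamine signalling over longer times, Penk had a difference of 0.0082 (SE 0.0557), Tac1 of 0.09 (SE 0.0649) and Pdyn of -0.09 (SE 0.113). Astrocyte (-0.058), microglia (-0.027), oligodendrocyte (0.057) and precursor (-0.045) medians were also near 0. Clock genes had a median of 0.011, with Per1, itself inducible by cAMP, at 0.31 (SE 0.0931), and glucocorticoid-responsive genes of -0.017. Respiratory chain, ribosomal protein, heat shock and reference genes had medians between -0.015 and 0.011.

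Markers of tissue next to the striatum varied between libraries. Of 12 genes of cortical and hippocampal excitatory neurons 2 had a difference above 0, where 50.8% of all genes did. Their median was -0.24 (-0.41 without control library 3, -0.12 without control library 5). The summed level was 1040 to 1253 CPM in Fos-high and 768 to 1271 CPM in Fos-low libraries. Slc17a7, the vesicular glutamate transporter that defines these neurons, was at 35.5, 46.6 and 95.2 CPM against 19.8, 77.1 and 131 CPM. Of 10 choroid plexus genes 0 were above 0, with a median of -0.49, and their sum was 27.0 to 3740 against 41.7 to 1767 CPM. N-TAF library 6 held the 3740, and without it the median was -3.38, while it was -0.11 without N-TAF library 5. Ependymal genes had a median of 0.36 with all libraries and -0.11 without N-TAF library 6. Endothelial and mural genes (median -0.12, 1 of 15 above 0), neuroblast genes (0.14, or -0.03 without N-TAF library 6) and blood cell transcripts (-0.54, or 0.39 without control library 3, summed level 4.74 to 32.6 against 4.37 to 37.9 CPM) did not separate the classes for any member. Of all genes 0.177% were higher and 0.0542% lower without overlap, so a count of 0 is near the share of all genes. With log2 CPM of Slc17a7, Ttr or Dbp as an added covariate 5, 6 and 6 genes passed the line, against 8 without one. Arc and Egr2, picked from the genes of largest difference, were above 1 in each of these fits and do not stand for the other genes. Whether neighbouring tissue or the time of day had a part in the differences was not tested.

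**Figure D5:**
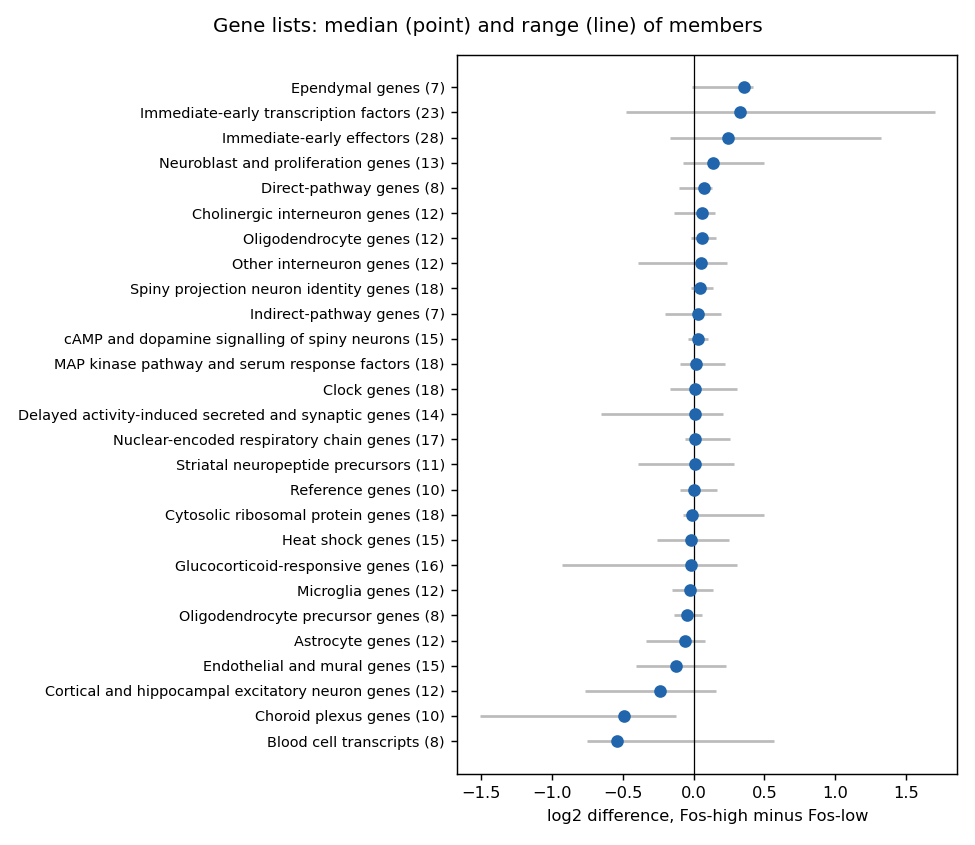
Median (point) and range (line) of the log2 difference, Fos-high minus Fos-low (horizontal axis), over the members of 27 gene lists, with the number of fitted members in brackets. The immediate-early lists have medians of 0.33 and 0.24 and highest members at 1.70 and 1.32. The ependymal list has a median of 0.36. Most medians of lists of cell types and housekeeping genes lie near 0. The choroid plexus list (median -0.49) and blood list (median -0.54) lie below it.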

How the data were processed

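The deposited mouse table held raw read counts for 54532 genes, 1 column per animal. The submitters' processing notes list STAR, featureCounts and edgeR without versions or roles. They name a human build, GRCh38, while the rows carry mouse gene identifiers, so the build is unsettled. Which annotation was counted, and whether strand was used, is not given in the sources used here, and overlapping or antisense genes cannot be told apart. Symbols were found for all but 123 rows, which held 0.0704% of the counts.

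Injection groups came from the labels, and libraries were numbered within a group in the order of the records. Within groups no pair of libraries had a chi-square per degree of freedom below 5.91 over genes with 20 counts or more, so none was counted as a duplicate. Libraries were ranked by Fos counts over the column total. TMM factors were computed on all 22 columns, and the Fos-high and Fos-low classes were fitted with edgeR 4.0.16 (limma 3.58.1, R 4.3.3) by the robust quasi-likelihood method, with the filterByExpr filter, injection as covariate and Benjamini-Hochberg adjustment over all genes. The standard error is the size of the log2 difference over the square root of F, with a median of 0.0628 for genes at 10 CPM or more. Log2 CPM used a prior count of 2. The exact permutation tests used scipy 1.17.1 and p-values measure only the spread between these libraries. DESeq2 1.42.0, other scalings, filters, class sizes and covariates and the omission of each library were tried as alternatives. The fit was tested on simulated counts.

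The genes and lists were chosen with earlier results of these data known. Named genes were Fos, members of the immediate-early and delayed lists, up to 15 genes per direction past the line with a mean of at least 1 CPM and a usual symbol, up to 4 members of each other list by smallest p and the 10 genes most like Fos at a mean of at least 5 CPM. Dropping the C/N-TAF libraries or the RT titles and a slope over control and N-TAF libraries were chosen after seeing the data. Genes named outside this rule, among them defining markers of a list such as Ppp1r1b and Slc17a7, and Creb1, Kcnj2 and Fam3c, were chosen after their values were seen. Some list members are not reported here. The rat table was not used here.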

Additional observations from a re-analysis of the deposited data

Results flagged for a closer look

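In 42 sets of 7 values (21 measures in each class) the highest and lowest library were compared with the rest, and 2 libraries lay apart by Dixon's 95% criterion, where chance marks about 1 set in 20. The summed level of choroid plexus genes in the Fos-high class was 3740 CPM in N-TAF library 6, while the next library had 517 CPM, a gap of 0.868 of the range. Spty2d1 in the Fos-high class was at 30.7 CPM in control library 2, with the next library at 27.99 CPM, a gap of 0.619 of the range. Its difference between the classes lay between 0.27 and 0.53 over all alternatives.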

How the results depend on the processing

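The count of 8 genes past the line with higher levels was 13 without a filter on low counts, 27 by DESeq2, 0 with the top 5 against the bottom 5 libraries, 3 with the top 10 against the bottom 10, 13 with C/N-TAF library 2 kept, 24 without the injection covariate, 16 with a slope on Fos over 20 libraries and 5 with Slc17a7 as covariate. With a library left out it ranged from 5 to 12. The count of genes with lower levels was 1 by DESeq2 and 0 in every other setting, left-out libraries included (0 to 0). The 36 genes higher without overlap became 414 in the top 5 against bottom 5 and 5 in the top 10 against bottom 10, and ranged from 39 to 68 with a library left out. The 11 lower became 274 and 0 and ranged from 13 to 34. Without the 3 Fos-low RT titles, a choice made after seeing the data, 10 genes passed and 141 and 90 did not overlap, higher and lower. Smaller classes leave fewer values to overlap by construction, and the cause of the other changes was not tested. DESeq2's size factors, TMM ranking and the Dbp, Ttr and length covariates left each count within 1.5 times. No value of a gene past the line turned its sign. Values of single genes moved by more than the spread within the classes in 39 cases and stayed within it in 2069, and list medians in 28 and 809 cases. In the 6 libraries of middle rank 4 relations passed by Pearson's r, and their 10 values stayed within the margin with log2(CPM + 1). Genes at about 1 CPM or below in many libraries, such as Mir132, Atf3 and Bdnf, rest on few counts, where counting error is large. No paired analysis was possible because the labels give the animals no replicate numbers.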
